A study of Mus musculus with 6 samples.

Results

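The collagen genes examined here are the members of the collagen gene family that had a microarray probe set of their own. A probe set was taken where its annotation named exactly 1 gene and the symbol of that gene had the form of a collagen chain, Col followed by a type number, the letter a and a chain number. This gave 82 probe sets of 42 genes, out of 18193 genes with a probe set of their own. The type VI chain gene Col6a6, Col21a1 and Col28a1 had no such probe set and were not analysed here. For each gene the probe set with the highest mean over the 6 arrays was taken as its lead probe set, and the other probe sets are given where they differed from it.

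Collagens are trimeric proteins of the extracellular matrix whose chains wind into a triple helix. Their chains are hydroxylated and folded in the endoplasmic reticulum, secreted, trimmed by proteases and cross-linked by lysyl oxidases. In the lung, fibrillar collagens made mainly by fibroblasts give the airway and vessel walls and the alveolar septa their tensile strength, and type IV collagen forms the network of the basement membrane between alveolar epithelium and capillary endothelium. Fibril-associated, beaded filament, anchoring and transmembrane collagens connect these structures to each other and to cells.

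RNA of whole lungs was measured in 2 groups of 3 male mice, 6 to 8 weeks old when used for the experiment per the published methods, 1 array per mouse. The LC-HFD mice received a high-fat diet (HFD), in which fat supplied 60% of the energy, and the LC-RD mice a regular diet (RD). Mice of both groups carried CC10-rtTA, a transcription activator under a promoter of airway club cells, together with a tet-O transgene for mutant human EGFR, and both groups received doxycycline to switch that transgene on and induce lung cancer (LC). The feed held 625 ppm and the drinking water 2 mg/ml of doxycycline. The labels give feeding up to 8 weeks and then 7 weeks of doxycycline, and the published methods give other durations. The mice were backcrossed to C57BL/6. Since every mouse on the arrays carried the transgenes and received doxycycline, the comparison was between diets in lungs with cancer induction, and lungs without induction were not analysed here.

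The lung label was borne out by the epithelial markers, since the alveolar type II gene Sftpc was at a log2 value of 13.81 and the club cell gene Scgb1a1 at 13.49 in LC-HFD and 13.60 in LC-RD lungs. The arrays had medians of 4.79 to 4.84. The control probe sets separated the groups: hybridization controls averaged 11.49 to 11.53 on the LC-HFD arrays and 10.01 to 10.04 on the LC-RD arrays, and 18S rRNA probe sets averaged 7.57 to 7.69 on the LC-HFD arrays and 12.51 to 12.54 on the LC-RD arrays. For each of these control sets the exact two-sided permutation test gave p = 0.1, the smallest value that 3 against 3 arrays allow. The 3′ minus 5′ signal of the Actb and Gapdh controls, a measure of RNA integrity and of labelling, was 0.346 to 0.44 on the LC-HFD arrays and 0.457 to 0.537 on the LC-RD arrays. Diet and array handling therefore cannot be told apart in these 6 arrays.

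Of the 42 collagen genes, 13 passed an adjusted p threshold of 0.05 on their lead probe set, or 31.0%, where 27.3% of all genes passed. In LC-HFD lungs 8 of these were higher (11.1% of all genes were called higher) and 5 were lower (16.2% of all genes). With quantile normalization the split was 8 higher and 3 lower. The differences were small. The median difference over the 42 genes was 0.12 on the log2 scale, and it was 0.02 over all genes. The range was −0.92 for Col14a1 to 1.04 for Col15a1, and Col15a1 was the only lead probe set that changed over 2-fold (1.68% of all genes did). The 3 LC-HFD values lay above or below all LC-RD values in 21 of 42 genes, against 49.1% of all genes. The share of genes called was thus near that of the array as a whole. The spread between mice was wider in LC-HFD lungs, with a median SD over the collagen lead probe sets of 0.141 in LC-HFD and 0.0788 in LC-RD lungs. The SD was the larger one in LC-HFD lungs for 30 of the 42 collagen genes, and for 66.2% of all genes.

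**Figure D1:**
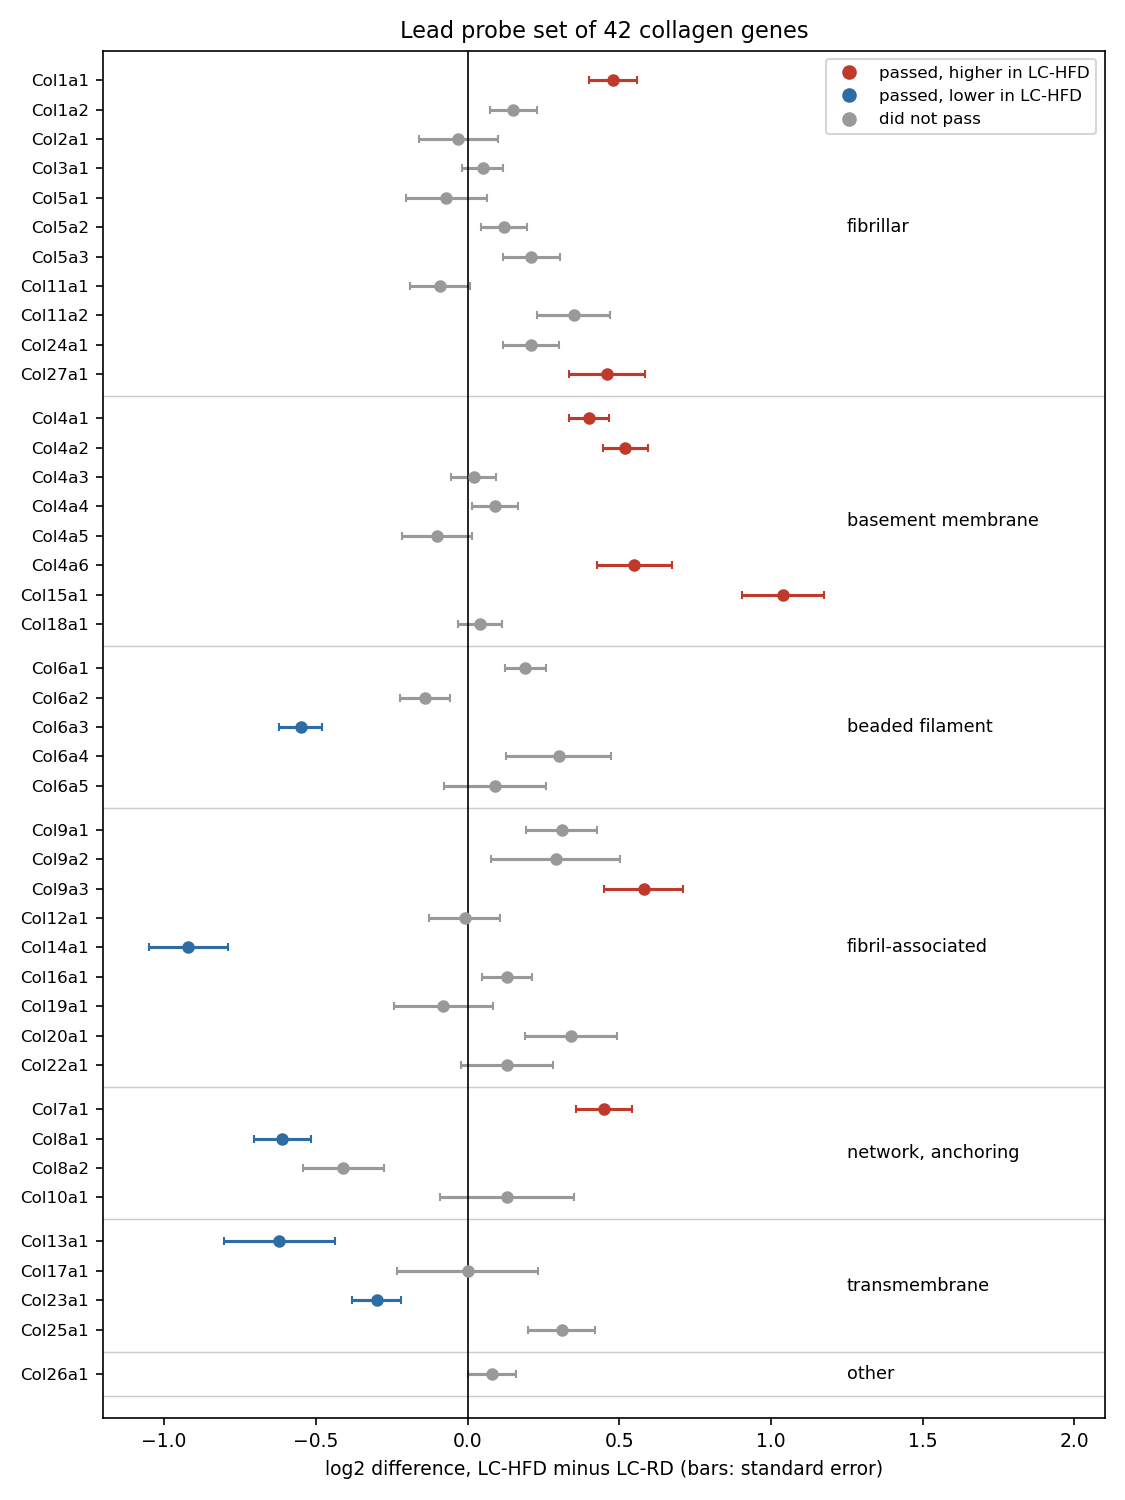
Difference in log2 value, LC-HFD minus LC-RD, of the lead probe set of each of the 42 collagen genes (points), with the standard error (bars) from limma over 3 mice in each group, and the genes grouped by class. Colours mark the 8 genes that were higher and the 5 that were lower at an adjusted p under 0.05. The points run from −0.92 (Col14a1) to 1.04 (Col15a1), and 4 of the 8 higher genes lie in the basement membrane class.

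By class, among the 8 basement membrane collagens 4 were higher and 0 lower (median difference 0.24), where 11.1% of all genes were higher and 16.2% lower. Among the 11 fibrillar collagens 2 were higher (18.2%) and 0 lower (median 0.15). Among the 23 other collagens 2 were higher and 5 lower (median 0.09). The mean log2 value of the basement membrane class was 8.62 to 8.71 on the LC-HFD arrays and 8.31 to 8.36 on the LC-RD arrays, and that of the fibrillar class was 6.25 to 6.26 on the LC-HFD arrays and 6.07 to 6.13 on the LC-RD arrays. In each of the remaining classes the arrays of the groups overlapped. No test was made of a class as a whole.

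The count of 13 depended on the LC-RD arrays, as did that over the whole array. It was 8 (19.0%) without LC-RD replicate 1 and 7 (16.7%) without LC-RD replicate 2, where 13.0% and 12.9% of all probe sets passed in place of 25.0%, and 11 to 13 when any of the other 4 arrays was left out. With that 3′ minus 5′ difference entered as a covariate, which itself separates the groups, 4 genes passed, 1 higher (Col1a1) and 3 lower (Col6a3, Col8a1 and Col14a1), or 9.52%, where 5.89% of all probe sets passed. With the methods' t-test 13 genes had an unadjusted p under 0.05 and 9 passed after Benjamini-Hochberg adjustment (21.4%, and 17.7% of all probe sets), and Col27a1, Col4a6, Col9a3, Col13a1 and Col23a1 did not. Of the 42 lead probe sets, 11 had a mean log2 value under 4, near the background of the array, and 0 of these passed by limma. All 13 calls came from the 31 genes at 4 or more, of which 41.9% passed, where 33.8% of all genes at that level did.

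The fibrillar collagens form the banded fibres of connective tissue. Type I collagen is assembled from the products of Col1a1 and Col1a2. The lead probe set of Col1a1 was at 8.61, 8.45 and 8.61 in LC-HFD lungs and 8.07, 8.03 and 8.13 in LC-RD lungs. Every LC-HFD value was above every LC-RD value, with means of 8.56 ± 0.0916 in LC-HFD and 8.08 ± 0.0474 in LC-RD lungs (SD, n = 3 each). Col1a1 was 1.39-fold higher (log2 difference 0.48, SE 0.0791, adjusted p = 0.00605). It kept this call in all 16 refits, which changed the model, normalization, filter, summary or samples at the same adjusted p threshold, with differences of 0.45 to 1.21.

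The other Col1a1 probe set gave the largest difference of the 82. It was at 8.32, 8.42 and 8.73 in LC-HFD lungs and 6.53, 6.65 and 6.49 in LC-RD lungs. Here too the groups did not overlap, and the difference was 1.94, or 3.82-fold (SE 0.117, adjusted p = 2.01e-04). Both probe sets therefore called Col1a1 higher, with differences 1.46 apart on the log2 scale. The size of the Col1a1 change thus depended on which probe set was read.

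Its partner chain Col1a2 was at 10.93, 11.10 and 10.95 in LC-HFD lungs and 10.84, 10.86 and 10.85 in LC-RD lungs. The LC-HFD values were all the higher ones, by a mean of 0.15 (SE 0.0774), and the gene did not pass (adjusted p = 0.204). With a variance that followed intensity it passed at the same difference (adjusted p = 0.0236). The 3 probe sets of Col1a2 gave differences of −0.38 to 0.19, and 0 of them passed by limma.

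Col3a1, the chain of type III collagen, which forms reticular fibres with type I, was at 10.97, 11.0 and 11.03 in LC-HFD lungs and 10.92, 10.96 and 10.97 in LC-RD lungs. These values overlapped, and the difference was 0.05 (SE 0.0676, adjusted p = 0.646). Its other probe set pointed the other way, at 7.91, 7.77 and 7.69 in LC-HFD lungs and 8.42, 8.49 and 8.45 in LC-RD lungs. On that probe set Col3a1 was 1.58-fold lower (log2 difference −0.66, SE 0.0825, adjusted p = 0.00225), and the call was lost only with the 3′ minus 5′ covariate (adjusted p = 0.0512) among its 15 refits. The direction of Col3a1 was therefore not settled by these arrays.

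Col5a1 and Col5a2 encode chains of type V collagen, which nucleates fibrils and limits their diameter. Col5a1 was at 6.28, 5.94 and 5.84 in LC-HFD lungs and 6.03, 5.98 and 6.26 in LC-RD lungs, with overlapping values and a difference of −0.07 (SE 0.134, adjusted p = 0.719). The lead probe set of Col5a2 was at 8.76, 8.92 and 8.84 in LC-HFD lungs and 8.72, 8.75 and 8.70 in LC-RD lungs. It differed by 0.12 (SE 0.0745, adjusted p = 0.29) and did not pass. As with Col3a1, the second Col5a2 probe set passed in the opposite direction. It was at 7.18, 7.01 and 7.11 in LC-HFD lungs and 7.55, 7.71 and 7.67 in LC-RD lungs, a difference of −0.54 (SE 0.0835, adjusted p = 0.00465, and 0.0895 with the 3′ minus 5′ covariate). Col3a1 and Col5a2 lie next to each other on chromosome 1.

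The other fibrillar call was Col27a1, a chain known from cartilage, which was 1.37-fold higher (log2 difference 0.46, SE 0.125, adjusted p = 0.0352). This call did not hold without any 1 of the LC-RD arrays, with adjusted p of 0.0828, 0.12 and 0.0837 without replicate 1, 2 and 3. The fibrillar chains of cartilage, Col2a1, Col11a1 and Col11a2, had mean values under 4 in both groups and did not pass, with differences of −0.09 to 0.35. Of 9 cartilage markers, 0 passed by limma and 7 were under 4 on all arrays. Their mean was 2.93 to 3.15 on the LC-HFD arrays and 2.83 to 2.86 on the LC-RD arrays, and its part in the Col27a1 and Col9a3 results was not tested.

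**Figure D2:**
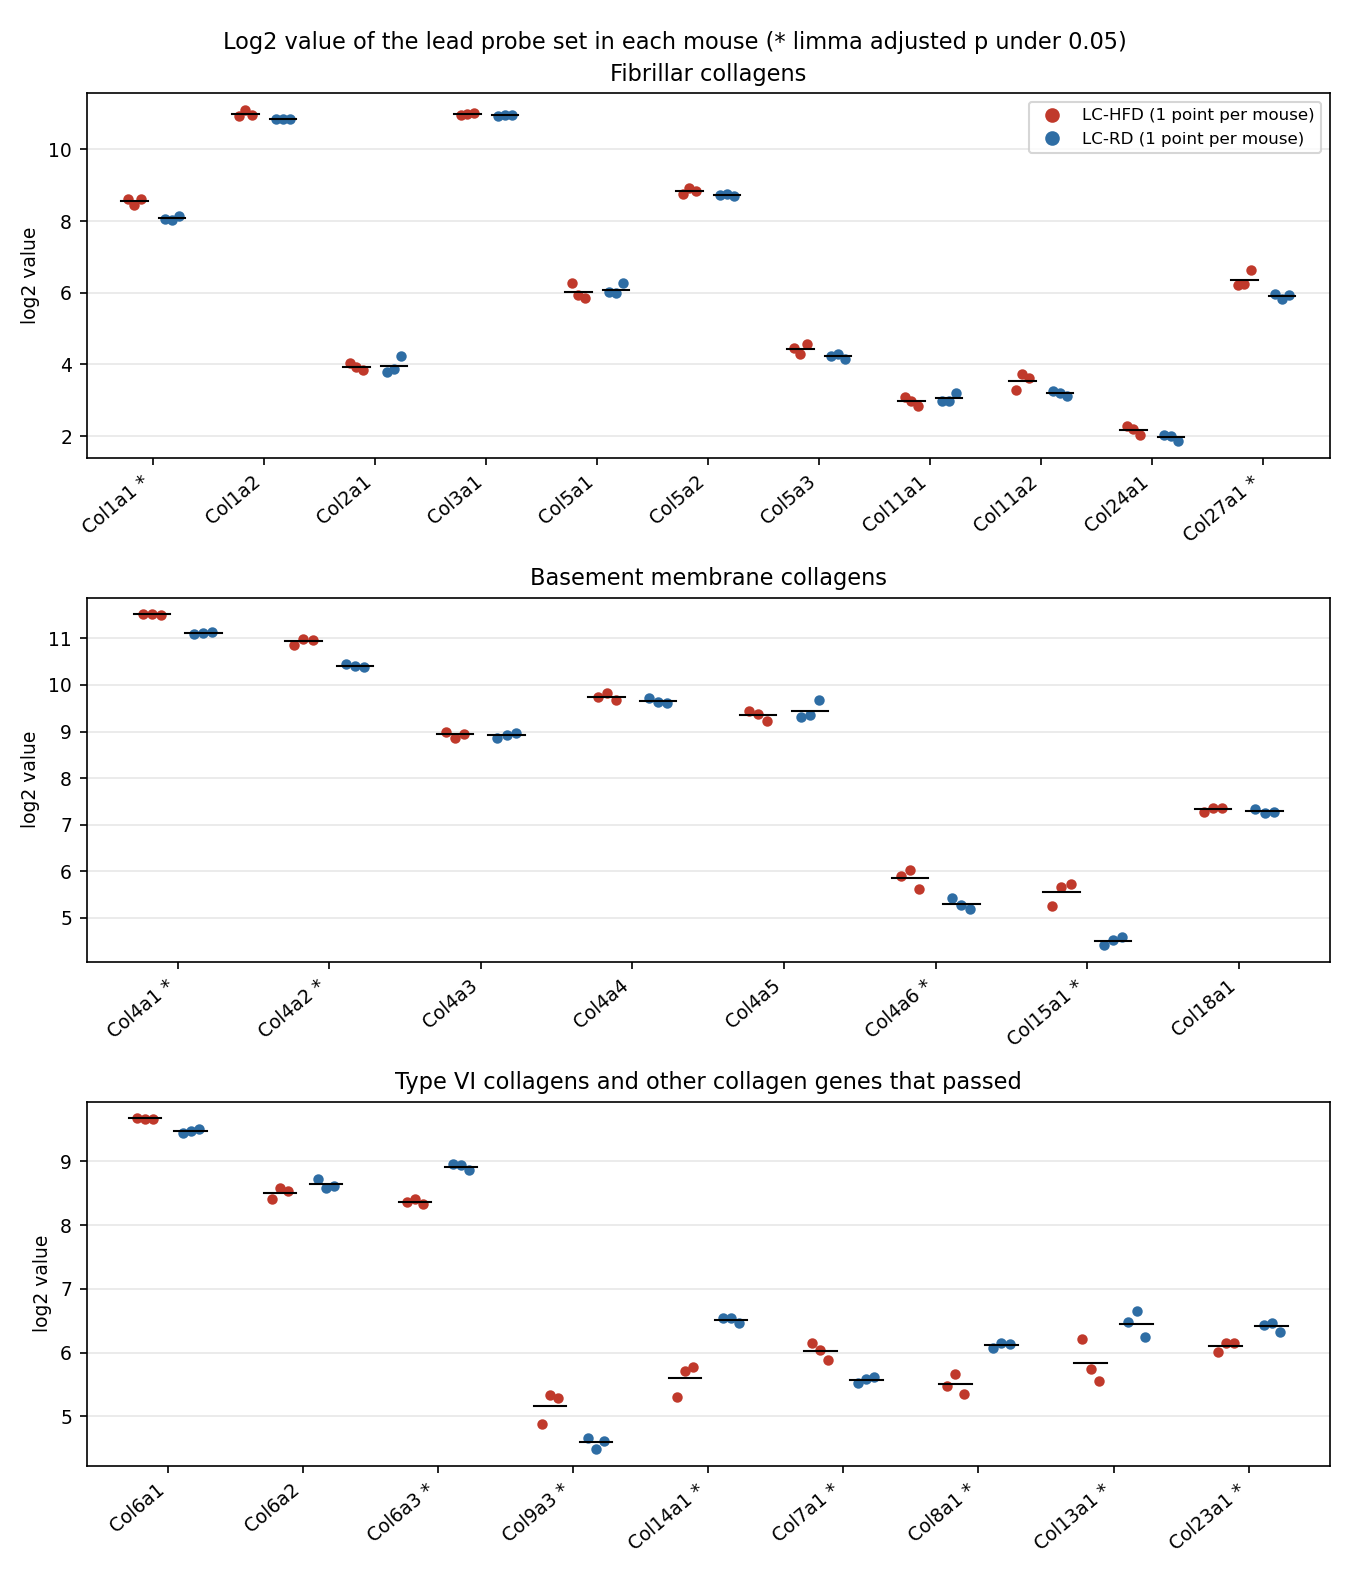
Log2 values of the lead probe sets in each mouse, with 3 LC-HFD mice to the left of 3 LC-RD mice for each gene, points spread sideways for legibility and black lines for the group means. The groups do not overlap for Col1a1, Col4a1, Col4a2, Col15a1 or Col6a3, and they overlap for Col3a1, Col5a1, Col4a3 and Col4a4.

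The type IV genes lie in head-to-head pairs, in which both genes of a pair start close together on opposite strands. Their products also assemble in fixed combinations: those of Col4a1 and Col4a2 form the network found in all basement membranes, those of Col4a3, Col4a4 and Col4a5 the network of mature alveolar and glomerular membranes, and those of Col4a5 and Col4a6 a network of a few other tissues. The start regions of a pair in which both genes rose and of a pair in which 1 rose are shown, as both genes of a pair start within or beside the same stretch of DNA. Each runs 5′ to 3′ on the strand of its gene, 250 bases before to 50 bases after the start site, from RefSeq on the GRCm38.p6 build. In the first pair the capitals mark the 78 bases that both windows hold, on opposite strands, of which 73.1% are G or C.
Col4a1 (chr8:11312777-11313076, minus strand): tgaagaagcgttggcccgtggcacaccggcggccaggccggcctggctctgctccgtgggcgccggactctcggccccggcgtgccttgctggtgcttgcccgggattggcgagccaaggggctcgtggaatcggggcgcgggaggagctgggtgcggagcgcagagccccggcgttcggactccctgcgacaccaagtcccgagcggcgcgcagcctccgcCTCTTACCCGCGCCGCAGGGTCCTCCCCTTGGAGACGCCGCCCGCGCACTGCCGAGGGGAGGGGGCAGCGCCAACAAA
Col4a2 (chr8:11312555-11312854, plus strand): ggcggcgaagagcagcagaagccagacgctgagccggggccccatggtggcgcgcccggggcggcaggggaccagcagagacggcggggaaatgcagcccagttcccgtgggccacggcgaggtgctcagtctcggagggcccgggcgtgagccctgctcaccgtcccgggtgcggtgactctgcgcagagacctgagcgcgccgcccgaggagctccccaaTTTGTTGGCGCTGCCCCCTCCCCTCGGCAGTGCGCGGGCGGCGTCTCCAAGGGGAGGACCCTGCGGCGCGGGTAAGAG
In the second pair the capitals mark GGGCGG or its reverse complement CCGCCC.
Col4a6 (chrX:141474027-141474326, minus strand): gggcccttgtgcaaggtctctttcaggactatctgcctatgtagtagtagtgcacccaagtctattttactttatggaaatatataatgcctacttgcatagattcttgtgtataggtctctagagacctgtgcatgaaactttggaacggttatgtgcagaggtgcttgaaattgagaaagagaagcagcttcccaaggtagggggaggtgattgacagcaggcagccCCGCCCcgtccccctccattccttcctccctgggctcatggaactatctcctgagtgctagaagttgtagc
Col4a5 (chrX:141475169-141475468, plus strand): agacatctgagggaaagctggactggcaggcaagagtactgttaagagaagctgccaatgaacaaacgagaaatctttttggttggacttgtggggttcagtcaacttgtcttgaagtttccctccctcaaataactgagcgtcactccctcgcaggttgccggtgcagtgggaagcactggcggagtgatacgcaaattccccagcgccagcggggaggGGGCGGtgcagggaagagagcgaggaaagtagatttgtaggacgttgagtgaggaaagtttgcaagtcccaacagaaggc

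The start sites were 21 bases apart in the Col4a1 and Col4a2 windows and 1343 bases apart in the Col4a6 and Col4a5 windows. Windows were found for 33 of the 42 collagen genes, 36 in all. GGGCGG on either strand, the core of a GC box, was in 22 of the 36 windows (61.1%), and in 35.7% of the 32851 windows of all genes. CCAAT was in 36.1% of the collagen windows and 37.4% of all, and TATAAA in 13.9% of the collagen windows and 13.6% of all, each searched on both strands. These matches describe the letters only, and some windows overlap, as those of Col4a1 and Col4a2 do.

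Both genes of the first pair rose. Col4a1 was at 11.52, 11.52 and 11.51 in LC-HFD lungs and 11.09, 11.11 and 11.14 in LC-RD lungs. Col4a2 was at 10.85, 10.99 and 10.96 in LC-HFD lungs and 10.45, 10.40 and 10.39 in LC-RD lungs. In both genes all LC-HFD values lay above all LC-RD values, by far more than the spread within a group. Col4a1 was 1.32-fold higher (log2 difference 0.40, SE 0.0666, adjusted p = 0.00629) and Col4a2 1.43-fold higher (0.52, SE 0.074, adjusted p = 0.00357). Each kept its call in 15 of 16 refits, the exception being the 3′ minus 5′ covariate (adjusted p = 0.0707 for Col4a1 and 0.0711 for Col4a2). The second Col4a1 probe set was at 10.24, 10.28 and 10.32 in LC-HFD lungs and 9.39, 9.33 and 9.40 in LC-RD lungs, 1.88-fold higher (0.91, SE 0.07, adjusted p = 4.49e-04), and kept its call in all 15 of its refits.

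The chains of the alveolar and glomerular network did not pass. Col4a3 was at 8.99, 8.87 and 8.95 in LC-HFD lungs and 8.87, 8.92 and 8.97 in LC-RD lungs, with overlapping values (difference 0.02, SE 0.0733, adjusted p = 0.885). Col4a4, its neighbour on chromosome 1, was at 9.74, 9.82 and 9.67 in LC-HFD lungs and 9.71, 9.63 and 9.62 in LC-RD lungs, also overlapping (0.09, SE 0.0756, adjusted p = 0.409). Col4a5 differed by −0.10 (SE 0.116, adjusted p = 0.564). Whether these differences were smaller than those of Col4a1 and Col4a2 was not tested.

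Col4a6, which starts beside Col4a5 on chromosome X, was at 5.89, 6.04 and 5.62 in LC-HFD lungs and 5.43, 5.28 and 5.20 in LC-RD lungs. The groups did not overlap, and the gene was 1.46-fold higher (log2 difference 0.55, SE 0.123, adjusted p = 0.018). The call was lost without LC-RD replicate 2 (adjusted p = 0.0669) and without LC-RD replicate 3 (0.0619), with the methods' t-test (0.0736) and with the 3′ minus 5′ covariate (0.253). Its second probe set differed by 0.23 and did not pass.

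Col15a1 and Col18a1 encode the multiplexins of the basement membrane zone, which carry an antiangiogenic fragment (endostatin in Col18a1) at their end. Col15a1, which is found mainly around vessels and muscle, was at 5.26, 5.67 and 5.73 in LC-HFD lungs and 4.42, 4.53 and 4.60 in LC-RD lungs. The means were 5.55 ± 0.256 in LC-HFD and 4.52 ± 0.0913 in LC-RD lungs (SD, n = 3 each), and the lowest LC-HFD mouse was above the highest LC-RD mouse. This was a 2.05-fold increase (log2 difference 1.04, SE 0.134, adjusted p = 0.0025), kept in 14 of 15 refits and lost with the 3′ minus 5′ covariate (adjusted p = 0.0604). Col18a1 differed by 0.04 (SE 0.0724, adjusted p = 0.72).

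Endothelial cells are a main source of type IV collagen. Of 8 blood vessel endothelial markers, 2 were higher in LC-HFD lungs (Tie1 by 0.92 and Pecam1 by 0.37) and 2 lower (Tek by −0.38 and Cldn5 by −0.23), with a median of 0.04. Of all genes 11.1% were higher and 16.2% lower. Tie1 passed in all 15 of its refits. The Pecam1 and Tek calls were lost without LC-RD replicate 1 and the Pecam1 call also without LC-RD replicate 2, and the Cldn5 call was lost without any 1 of the 6 arrays. Cdh5 and Egfl7 did not pass on their lead probe sets. The 2 probe sets of Cdh5 gave differences of 0.15 and 1.03, and the 4 of Egfl7 gave −0.66 to 0.15. The mean of the 8 lead probe sets was 8.36 to 8.47 on the LC-HFD arrays and 8.29 to 8.34 on the LC-RD arrays. Its part in the basement membrane results was not tested. In RNA of whole lungs, more or fewer cells of a type cannot be told apart from more or less RNA per cell.

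Type VI collagen forms beaded filaments next to basement membranes, from the products of Col6a1, Col6a2 and 1 further chain, usually that of Col6a3. Col6a3 was at 8.37, 8.41 and 8.33 in LC-HFD lungs and 8.96, 8.94 and 8.86 in LC-RD lungs. The groups were well apart, and Col6a3 was 1.46-fold lower (log2 difference −0.55, SE 0.0716, adjusted p = 0.00259). With Col1a1 it was 1 of the 2 collagen genes that kept their call in all 16 refits, at −0.62 to −0.52.

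Col6a1 was at 9.68, 9.67 and 9.67 in LC-HFD lungs and 9.44, 9.48 and 9.51 in LC-RD lungs. All 3 LC-HFD values were the higher ones, but the gene did not pass (log2 difference 0.19, SE 0.0675, adjusted p = 0.0766). It passed in 5 of the refits, for example at an adjusted p of 0.0295 when only probe sets with a mean of at least 4 were tested. Col6a2, its neighbour on chromosome 10, was at 8.41, 8.59 and 8.53 in LC-HFD lungs and 8.73, 8.59 and 8.62 in LC-RD lungs, which almost touched (−0.14, SE 0.0823, adjusted p = 0.254). The second Col6a2 probe set, of a design that may also match other transcripts, was at 8.19, 8.24 and 8.32 in LC-HFD lungs and 7.40, 7.28 and 7.38 in LC-RD lungs. On it Col6a2 was 1.86-fold higher (0.90, SE 0.0768, adjusted p = 6.34e-04), in all 15 of its refits, so that the 2 probe sets of this gene pointed in opposite directions. The mean of the 5 beaded filament genes overlapped between the groups, at 6.57 to 6.68 on the LC-HFD arrays and 6.61 to 6.68 on the LC-RD arrays.

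Fibril-associated collagens sit on the surface of fibrils. Col14a1, which takes part in setting fibril diameter, was at 5.30, 5.72 and 5.77 in LC-HFD lungs and 6.54, 6.54 and 6.47 in LC-RD lungs. The LC-HFD mice varied more, yet all lay below the LC-RD mice, and the gene was 1.89-fold lower (log2 difference −0.92, SE 0.129, adjusted p = 0.00335). The other 2 probe sets of Col14a1 differed by −0.23 and −0.07 and did not pass, and the median of the gene's 3 probe sets did not pass either (−0.23, adjusted p = 0.169). Col9a3, known from the type IX collagen of cartilage, was at 4.89, 5.33 and 5.29 in LC-HFD lungs and 4.67, 4.49 and 4.62 in LC-RD lungs, 1.49-fold higher (0.58, SE 0.129, adjusted p = 0.0179). This call was lost without LC-HFD replicate 3 (adjusted p = 0.051) and without LC-RD replicate 1, 2 or 3 (0.0506, 0.0709 and 0.0519), and the median of its 3 probe sets differed by −0.04. The other 7 genes of the class did not pass, with differences of −0.08 to 0.34.

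The 4 network and anchoring collagens gave 1 call in each direction, where 11.1% of all genes were higher and 16.2% lower. Col8a1, a chain of the short network collagen of vessel walls, was at 5.48, 5.67 and 5.36 in LC-HFD lungs and 6.07, 6.15 and 6.13 in LC-RD lungs. The groups did not overlap, and Col8a1 was 1.53-fold lower (log2 difference −0.61, SE 0.0952, adjusted p = 0.00483). Its other 2 probe sets differed by 0.29 and 0.12 and did not pass. Col7a1, the chain of the anchoring fibrils that fasten epithelial basement membranes, was 1.37-fold higher (0.45, SE 0.0927, adjusted p = 0.013), a call lost without LC-RD replicate 1 (adjusted p = 0.0595) or LC-RD replicate 2 (0.0502).

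Of the transmembrane collagens, which are held in the cell membrane and can be shed, 2 of 4 were lower and 0 higher. Of all genes 16.2% were lower and 11.1% higher. Col13a1, found at cell adhesions, was at 6.22, 5.74 and 5.56 in LC-HFD lungs and 6.48, 6.65 and 6.24 in LC-RD lungs. The highest LC-HFD mouse lay just below the lowest LC-RD mouse, and the gene was 1.54-fold lower (log2 difference −0.62, SE 0.183, adjusted p = 0.0462). Without any 1 of LC-HFD replicates 2 and 3 and the 3 LC-RD replicates it did not pass (adjusted p of 0.0581 to 0.148). Col23a1 was 1.23-fold lower (−0.30, SE 0.0809, adjusted p = 0.0342). It did not pass without LC-HFD replicate 1 (0.0683) or 3 (0.0579), or without LC-RD replicate 1 (0.12) or 2 (0.125).

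**Figure D3:**
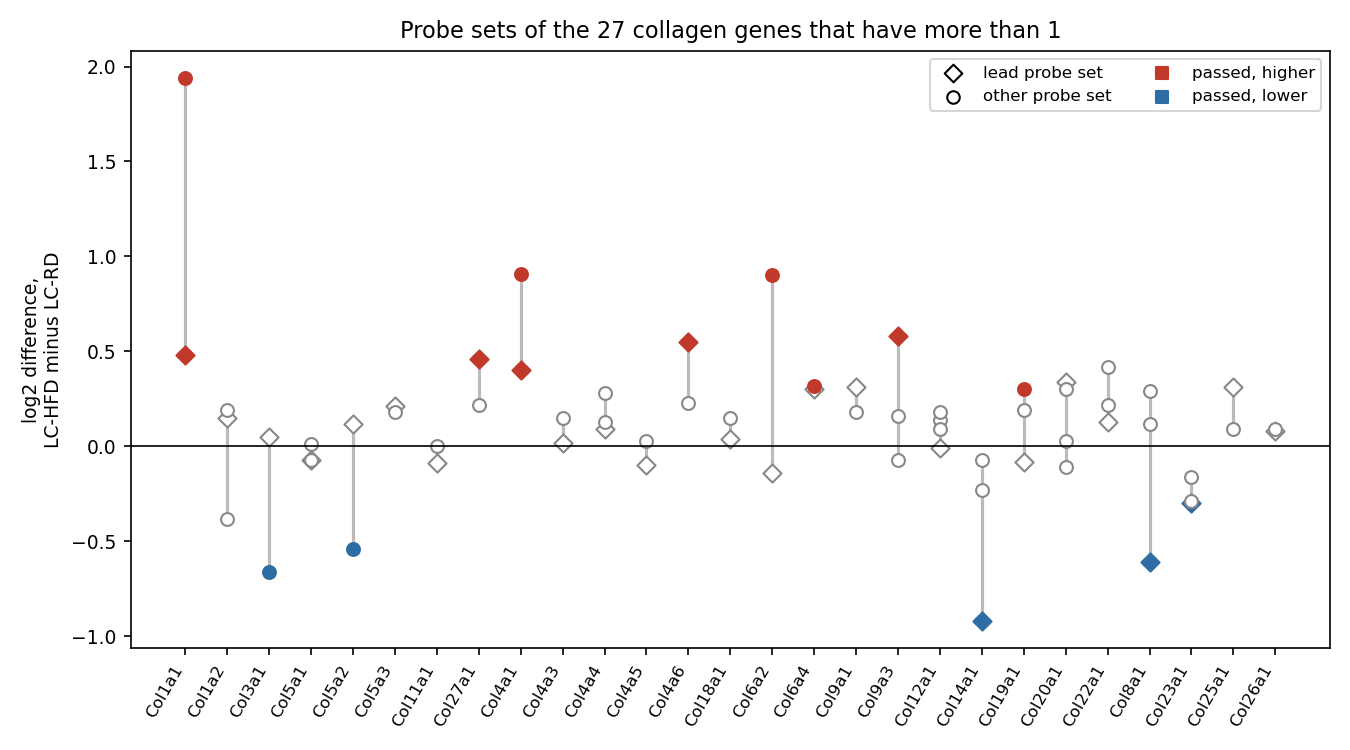
Difference in log2 value, LC-HFD minus LC-RD, of every probe set of the 27 collagen genes that have more than 1, with the probe sets of a gene joined by a line and the lead probe set marked. The widest lines are those of Col1a1 (0.48 and 1.94) and Col6a2 (−0.14 and 0.90).

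Over all 82 probe sets, 20 passed (24.4%, against 25.0% of all probe sets on the array), 13 higher and 7 lower in LC-HFD lungs. Of these, 2 changed over 2-fold (1.73% of all probe sets), 1 of Col1a1 and that of Col15a1, and the groups did not overlap on 37 of the 82 (43.8% of all probe sets). Among the 27 collagen genes with more than 1 probe set, the range of the differences within a gene had a median of 0.24 on the log2 scale, against 0.327 over 9010 genes of the array. It was over 1 in Col1a1 and Col6a2 (7.41%, against 5.89% of the 9010 genes). Among probe sets with a mean of at least 6 it was over 1 in 18.2% of 11 collagen genes. That share was 3.04% for 3454 genes of the array. The probe sets of 11 genes (40.7%) differed in sign, against 48.4% of all such genes. Probe sets passed in both directions by limma in 0 of the 27 collagen genes and in 334 of the 9010 genes of the array. Besides those given above, Col6a4 and Col19a1 each had a further probe set that passed as higher (differences of 0.32 and 0.30), both with means under 4. Both calls were lost without LC-RD replicate 1 (adjusted p of 0.0778 and 0.0787) or LC-RD replicate 2 (0.114 and 0.0706), and that of Col6a4 also without LC-HFD replicate 2 (0.069) or LC-RD replicate 3 (0.0615).

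Genes that make, process, degrade or bind collagen were taken as 5 lists, of which 58 of 63 genes were measured. Of these, 6 were higher and 8 lower in LC-HFD lungs (24.1% passed, against 27.3% of all genes), with a median difference of 0.05. With quantile normalization the split was 9 higher and 6 lower. The count of 14 fell to 7 without LC-HFD replicate 2 or 3, 5 without LC-RD replicate 1, 6 without LC-RD replicate 2 and 8 without LC-RD replicate 3. It was 15 without LC-HFD replicate 1 and 2 with the 3′ minus 5′ covariate. By list, 15.8% of the hydroxylation and folding genes passed, 10.0% of the processing and cross-linking genes and 22.2% of the degradation and uptake genes. Of the receptors 12.5% passed and of the fibril regulators and partners 58.3%, against 27.3% of all genes.

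Of 19 genes for hydroxylation and folding of the chains in the endoplasmic reticulum, 2 were higher and 1 lower. P4ha1, the catalytic subunit of a prolyl hydroxylase, differed by 0.28 (SE 0.0698, adjusted p = 0.025) and the lysyl hydroxylase Plod1 by 0.30 (SE 0.0796, adjusted p = 0.0339). The collagen chaperone Serpinh1, which is specific to procollagen, was at 10.01, 10.03 and 9.98 in LC-HFD lungs and 9.78, 9.88 and 9.82 in LC-RD lungs. Its groups did not overlap, and it did not pass on this lead probe set (0.18, SE 0.0692, adjusted p = 0.0963). The prolyl isomerase Fkbp14 was lower (log2 difference −0.45, SE 0.0821, adjusted p = 0.00871). The 2 probe sets of P4ha1 gave differences of −0.05 and 0.28, those of Plod1 0.16 and 0.30, and those of Fkbp14 −0.45 and 0.06. Those of Serpinh1 gave 0.18 and 0.48. The P4ha1 call was lost without any 1 of the arrays other than LC-HFD replicate 1 (adjusted p of 0.0502 to 0.0846), and the Plod1 call without any 1 other than LC-HFD replicate 3 (0.0591 to 0.125).

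Of 10 measured genes for procollagen processing and cross-linking, 1 passed. This was Pcolce2, an enhancer of C-propeptide removal, which was lower (−0.39, SE 0.0739, adjusted p = 0.01, and 0.0509 without LC-RD replicate 1). The C-proteinase Bmp1 differed by 0.26 (adjusted p = 0.0615) and the lysyl oxidase Lox by −0.26 (adjusted p = 0.0626), and neither passed on its lead probe set. The 3 probe sets of Bmp1 gave differences of 0.26 to 0.52 and the 3 of Lox gave −0.90 to 0.19. Of 9 genes for degradation and uptake, 2 were higher. The membrane collagenase Mmp14 was at 9.20, 9.14 and 9.10 in LC-HFD lungs and 8.66, 8.60 and 8.71 in LC-RD lungs, with no overlap and a difference of 0.49 (SE 0.073, adjusted p = 0.00428) that passed in all 15 of its refits. The collagen uptake receptor Mrc2 differed by 0.37 (SE 0.0907, adjusted p = 0.0257), a call that was lost without any 1 array other than LC-HFD replicate 1 (0.061 to 0.0825). The 2 probe sets of Mrc2 gave differences of −0.02 and 0.37, and the 3 of Mmp14 gave 0.29 to 0.86.

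Of 8 measured collagen receptors 1 passed, the inhibitory receptor of immune cells Lair1 (−0.43, SE 0.116, adjusted p = 0.0344), and this call was lost without LC-HFD replicate 3 (0.0597) or without LC-RD replicate 1, 2 or 3 (0.113, 0.0893 and 0.0835). Neither discoidin receptor passed on its lead probe set, with differences of −0.14 for Ddr1 and −0.28 for Ddr2. The 8 probe sets of Ddr1 gave −0.15 to 0.27 and the 2 of Ddr2 gave −0.28 and 0.24.

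The 12 regulators and partners of fibrils held most of the lower calls, with 5 lower, 2 higher and a median of −0.22. Ogn, a small leucine-rich proteoglycan that binds fibrils, was at 7.12, 6.96 and 7.09 in LC-HFD lungs and 8.51, 8.47 and 8.38 in LC-RD lungs. The groups lay more than 1 log2 unit apart, and Ogn was 2.64-fold lower (−1.40, SE 0.0805, adjusted p = 1.82e-04), in all 15 of its refits. Its relative Lum was at 4.81, 4.36 and 4.16 in LC-HFD lungs and 5.43, 5.26 and 5.31 in LC-RD lungs (−0.89, SE 0.162, adjusted p = 0.00841). Postn, a matricellular protein that takes part in cross-linking, was lower by the same test (−0.53, SE 0.0814, adjusted p = 0.00467). Dcn, Thbs1, Sparc and Fmod passed at differences of −0.25, −0.31, 0.29 and 0.53, and each of these 4 calls was lost on leaving out any 1 of several arrays, LC-RD replicates 1 and 2 among them (adjusted p of 0.0824 to 0.165 without either).

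**Figure D4:**
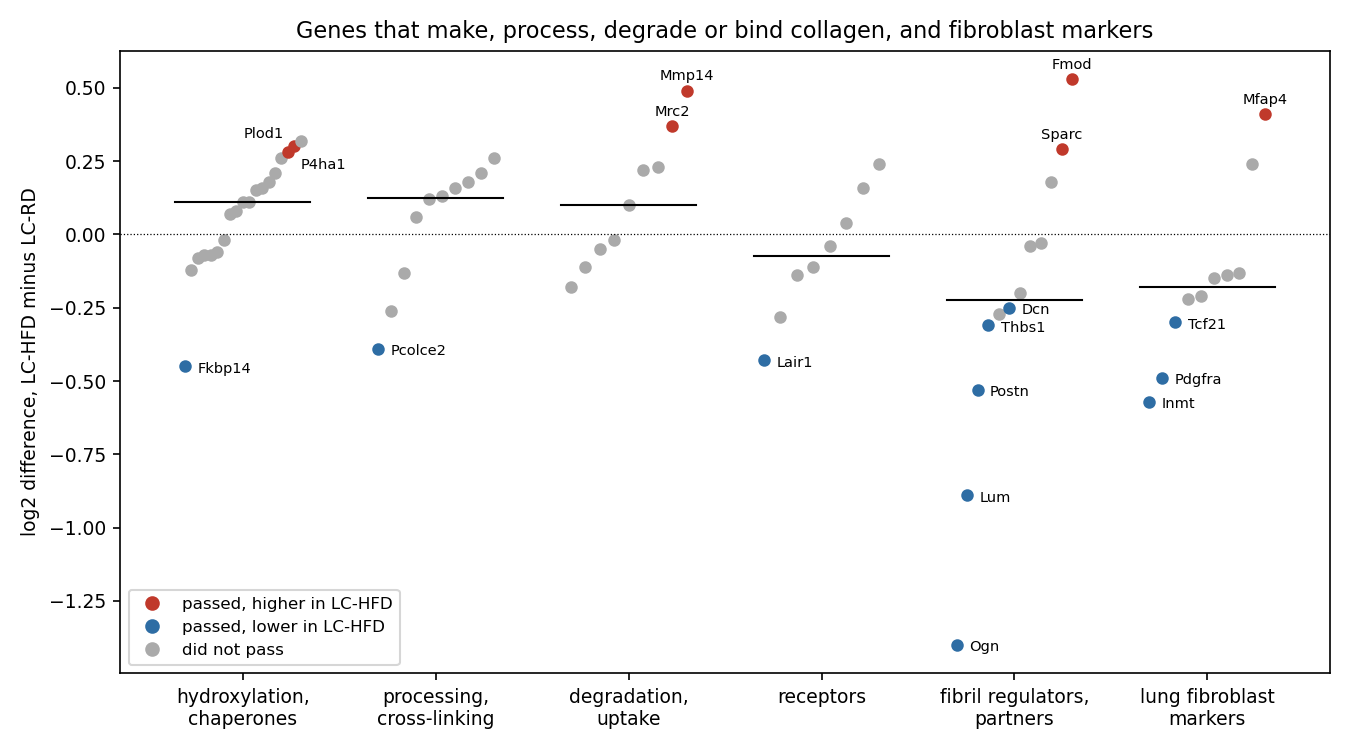
Difference in log2 value, LC-HFD minus LC-RD, of the lead probe set of each measured gene on the 5 lists of collagen-related genes and of 10 lung fibroblast markers, with black bars for the list medians. The genes that passed are named, and Ogn (−1.40) lies furthest from 0.

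Fibroblast markers were read beside these results. Of all genes 11.1% were higher and 16.2% lower. Of 10 lung fibroblast markers 3 were lower in LC-HFD lungs (Inmt by −0.57, Pdgfra by −0.49 and Tcf21 by −0.30) and 1 higher (Mfap4 by 0.41), with a median of −0.18, and their mean was 8.31 to 8.37 on the LC-HFD arrays and 8.43 to 8.53 on the LC-RD arrays. The Tcf21 call was lost on leaving out any 1 array other than LC-HFD replicate 1 (adjusted p of 0.0628 to 0.145). These counts rest on lead probe sets. The 2 probe sets of Tcf21 gave differences of −0.30 and 0.20, and the 3 of Pdgfra gave −0.72 to −0.49. The 5 probe sets of Npnt, a marker that did not pass on its lead, gave −0.21 to 2.05. Of 9 myofibroblast and smooth muscle markers 1 was higher and 1 lower, and their means overlapped at 6.65 to 6.73 on the LC-HFD arrays and 6.59 to 6.69 on the LC-RD arrays. The defining gene Acta2 did not pass, at 8.65 ± 0.12 in LC-HFD and 8.66 ± 0.132 in LC-RD lungs (SD, n = 3 each).

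Markers of other cell types were read in the same way. Of all genes 27.3% passed, 11.1% as higher and 16.2% as lower. Of 6 mesothelial markers 5 were lower in LC-HFD lungs, with means of 5.45 to 5.70 on the LC-HFD arrays and 5.98 to 6.14 on the LC-RD arrays. Of 6 club and ciliated cell markers 3 were lower, with means of 8.47 to 8.62 on the LC-HFD arrays and 8.78 to 8.88 on the LC-RD arrays. Of 6 skeletal and cardiac muscle markers 3 were lower and 1 higher, with means of 4.61 to 4.82 on the LC-HFD arrays and 4.99 to 5.12 on the LC-RD arrays. Of 7 macrophage markers 2 were higher, Marco by 0.77 and Chil3 by 0.29, with means of 9.35 to 9.37 on the LC-HFD arrays and 9.20 to 9.23 on the LC-RD arrays. Of 4 adipocyte markers 2 were higher, Adipoq by 0.70 and Fabp4 by 0.32, with means of 4.97 to 5.02 on the LC-HFD arrays and 4.57 to 4.80 on the LC-RD arrays. Of these 4 markers 2 were under 4 on all arrays, near background, Adipoq among them. The 4 probe sets of Fabp4 gave differences of −0.67 to 0.32, so its direction depended on the probe set. Of 5 bone markers 1 was lower, with means of 3.05 to 3.30 on the LC-HFD arrays and 3.33 to 3.45 on the LC-RD arrays. The means of the alveolar type I and type II markers overlapped between the groups. The lead probe set of Sftpc was at 13.81, the highest value of each array, where a rise could not be seen. The other probe set of Sftpc was higher in LC-HFD lungs, by 1.45. The Chil3, Adipoq and Fabp4 calls were each lost on leaving out LC-HFD replicate 3 or LC-RD replicate 1, among other arrays. So was that of the muscle marker Acta1, which was higher. Among the lower calls, those of Rspo1 (mesothelial), Cyp2f2 and Ccdc39 (club and ciliated) and Myh6 (muscle) were lost without any 1 LC-RD array. The other mesothelial calls were lost only with the 3′ minus 5′ covariate. The calls of Marco, Scgb3a2, Myl7, Actc1 and the bone marker Phex were kept in all their refits. The part of these markers' cell types in the collagen, proteoglycan and fibroblast marker values was not tested.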

How the data were processed

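Lung RNA from 3 mice of each diet group had been hybridized to whole-genome mouse arrays of Affymetrix. The log2 values were used as deposited; per the labels they come from GCRMA, which corrects background by probe sequence, normalizes between arrays and summarizes probe sets (version not given in the sources used here). Platform annotation named exactly 1 gene for 34945 probe sets, several for 932 and none for 9160, and only the first kind was used to name a gene. limma (version 3.58.1, R 4.3.3; lmFit and eBayes, two-sided) was fitted to the 45037 probe sets other than controls, with Benjamini-Hochberg adjustment over all of them and a threshold of 0.05, and was tested on simulated data. Levels of different probe sets were compared only to choose leads, to filter on mean log2 value and to summarize genes or lists. The number of arrays limits the precision. The members, lists and tests were chosen with earlier results of these data known. Values of every mouse are given for 12 main chains and for collagen genes whose lead probe set passed with an absolute log2 difference of at least 0.5, and from other lists up to 4 passed genes with the largest difference and up to 2 that define the list are named. Other probe sets and genes, and the values of every mouse for genes other than collagens, were chosen after their values were seen. Same-numbered mice did not deviate together (residual correlations of −0.043, −0.093 and −0.03), so samples were not treated as paired. The residuals were centred within each group of 3 arrays, so these values cannot exclude a pairing. Alternatives were the methods' t-test, other variance models, array weights, quantile normalization, median centering, filters on mean log2 value, the replicate block, a covariate for the 3′ minus 5′ signal, the median of a gene's probe sets, an added 2-fold threshold and leaving out each array. Those on all collagen probe sets and on the collagen-related lists were added after seeing the data.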

Additional observations from a re-analysis of the deposited data

How the results depend on the processing

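Of the 13 collagen genes that passed, Col1a1 and Col6a3 kept their call in every refit at the adjusted p threshold, Col4a1, Col4a2 and Col15a1 lost it only with the 3′ minus 5′ covariate, and Col13a1 and Col23a1 lost it in 8 and 9 refits. The methods' t-test called 7950 probe sets and 9 collagen genes. With that covariate the counts fell to 2653 from 11250 for all probe sets, 4 from 13 for collagen genes, 7 from 20 for collagen probe sets and 2 from 14 for collagen-related genes; the covariate itself differs between the groups. Leaving out 1 array gave 5792 to 11531 probe sets in all, 7 to 13 collagen genes, 12 to 24 collagen probe sets and 5 to 15 collagen-related genes. Requiring a change over 2-fold as well left 781, 1 (Col15a1), 2 and 1. The lead probe sets of Col1a1, Col6a3, Col4a1 and Col4a2 thus passed only without that requirement. The other Col1a1 probe set (log2 difference 1.94) met it. The 14 collagen-related genes became 26 with an intensity trend and robust variance, 22 and 24 among probe sets averaging at least 4 and 6, and 8 with the replicate block; with that block 12 of the collagen genes passed (Col23a1 did not) and 7906 probe sets in all. Taking each gene's median over its probe sets turned the direction of Col3a1 (−0.31, adjusted p = 0.0106), Col5a2 (−0.21, 0.0376), Col6a2 (0.38, 0.00805), Col9a3 (−0.04, 0.811) and Col8a1 (0.29, 0.297). Genes near 0 also turned: Col5a1 to 0.01 with quantile normalization, 0.19 with the covariate and, leaving out 1 array, −0.20 to 0.02 (above 0 without replicate 3 of either group), and Col4a3 to −0.01 to 0.05 leaving out 1 array (below 0 without replicate 1 of either group). The causes were not tested. With 3 arrays per group, genes that did not pass may still differ.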
